A study of Homo sapiens with 6 samples.

Results

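The AP-1 transcription factors of the FOS, JUN and small MAF families were followed at the RNA level in Kasumi-1 cells, a human acute myeloid leukaemia line with the t(8;21) translocation. The members were the 10 genes FOS, FOSB, FOSL1, FOSL2, JUN, JUNB, JUND, MAFF, MAFG and MAFK, and every probe set of the array whose platform annotation names only 1 of them was used. This gave 21 probe sets for 9 of the 10 genes, out of 54675 probe sets on the array and 41091 probe sets annotated to a single one of 19775 genes. MAFK is not analysed here. A probe set is a group of short oligonucleotides on the array that together measure 1 transcript.

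AP-1 proteins bind DNA as dimers through a basic region and a leucine zipper. FOS proteins (FOS, FOSB, FOSL1 and FOSL2) cannot form stable dimers with one another and need a JUN partner, whereas JUN proteins (JUN, JUNB and JUND) can also pair among themselves. The small MAF proteins (MAFF, MAFG and MAFK) lack a transactivation domain and act as partners of CNC factors such as NFE2 and NFE2L2 or of BACH1. FOS, FOSB, JUN, JUNB and MAFF are early response genes whose short-lived transcripts are known to build up when protein synthesis is blocked, and JUN protein can activate its own gene.

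The study compared 3 arrays of vehicle-treated cells with 3 arrays of cells given 20 nM homoharringtonine (HHT), a plant alkaloid that blocks translation elongation, both after 24 h. Both groups are the same line in the same medium and, by the labels, differ only in this treatment. The series title concerns how HHT acts on MYC through the NF-kB repressing factor. Nothing in the labels ties the 3 arrays of a group to independent cultures, so the p-values describe array-to-array spread that may be purely technical. The sample titles count up from the vehicle to the HHT arrays, so that order and treatment cannot be told apart. All values are of RNA from whole cultures of a single line at a single time, in which fewer cells of a kind and less RNA per cell cannot be told apart.

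Values are log2 signals, so a change of 1 is a 2-fold change. The level below which the dimmest 40% of probe sets lay was 4.80, and probe sets with a mean under it were not tested. The 18 hybridisation controls, transcripts added in equal amount to each sample, averaged 11.96 to 12.01 on the vehicle arrays and 11.63 to 11.75 on the HHT arrays. The median change of all genes tested, -0.00 as deposited, moved to 0.284 when arrays were set to equal hybridisation controls and to 0.239 with equal medians of all probe sets. It was 0.0507 after quantile normalization. A change smaller than the shifts of 0.239 to 0.284 can turn its direction with the scaling. Of the 5 blast markers with a probe set, KIT, MPO, RUNX1T1 and CD34 lay above the filter level and CD38 below it. MPO fell by 1.76, CD34 by 1.18 and KIT by 0.62, while RUNX1T1 differed by -0.03, and the summed level of the list was at least 15.83 on every vehicle array and 15.06 to 15.15 on the HHT arrays. CD3D, a T cell marker, lay at 11.62 in vehicle and 11.76 in HHT and PAX5, a B cell factor, at 10.28 and 10.03. The other T cell markers, CD3E, CD3G and TRAT1, had means of 5.84 or less. Summed over each list, the T cell markers lay at 11.63 to 11.68 in vehicle and 11.71 to 11.89 in HHT, and the B cell markers at 10.44 to 10.57 and 10.24 to 10.27. The erythroid markers summed to 7.34 to 8.09 and 6.79 to 7.29, and the fibroblast markers to 8.13 to 8.40 and 7.03 to 7.80. No marker was at 0 on all arrays, and the part of such signals in the results was not tested.

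RefSeq promoter sequences (GRCh38.p14) were matched for 8 members, all except FOSL1 and MAFK, in 9 windows of 250 bases before to 50 bases after the gene start. They are shown because JUN, the member with the largest rise, is known to be controlled through sites just upstream of its start. The JUN stretch lies on the minus strand at chr1:58784048-58784297, the MAFF stretch on the plus strand at chr22:38201914-38201973, the JUND stretch on the minus strand at chr19:18281789-18281848 and the FOSL2 stretch on the plus strand at chr2:28392848-28392877. Capitals mark matches to TGACNTCA, which covers the cAMP response element and the variant in JUN, in JUN, MAFF and JUND, the MEF2 site in JUN, and TGACTCA, the classical AP-1 element, in FOSL2.
JUN: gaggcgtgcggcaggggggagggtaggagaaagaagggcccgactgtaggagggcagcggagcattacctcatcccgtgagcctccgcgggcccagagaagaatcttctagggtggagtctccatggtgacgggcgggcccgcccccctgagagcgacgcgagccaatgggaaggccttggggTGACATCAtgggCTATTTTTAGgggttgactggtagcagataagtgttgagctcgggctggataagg
MAFF: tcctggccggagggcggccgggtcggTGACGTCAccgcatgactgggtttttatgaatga
JUND: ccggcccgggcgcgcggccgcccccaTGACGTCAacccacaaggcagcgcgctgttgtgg
FOSL2: tcgtgccattgtagTGACTCAtctcgggca

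Both strands were searched for each motif. In the 250 bases upstream, TGACNTCA was found in JUN starting 67 bases before the gene start, in MAFF 54 bases and in JUND 200 bases before it, and in 6.87% of all 35116 RefSeq windows. TGACGTCA, which is contained in that motif, was the form in MAFF and JUND and occurred in 1.65% of all windows, while JUN carried TGACATCA. The MEF2 site was found in JUN alone among the members, 55 bases before the start and next to TGACATCA, and in 0.515% of all windows. TGACTCA was absent from the upstream stretches of the members, which 4.20% of all windows hold, and within the whole 300 bases it was found only in FOSL2, at position 5 after the start, against 4.95% of all windows. A kappaB site was found in MAFF, 102 bases before the start, and in 9.96% of all upstream stretches. MAFF has 2 windows, and TGACNTCA and the kappaB site were each found in only 1 of them. The CArG box, bound by SRF, was in no member's window and in 1.29% of all whole windows. Sites farther than 250 bases upstream were not searched, so a gene without a match here may hold one there. A match of letters describes the sequence and does not show that a factor binds there.

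JUN rose after HHT, while the other tested members were called higher, lower or not at all. Each gene was represented by its probe set of highest mean, and 7 of the 9 genes passed the filter. In limma, with Benjamini-Hochberg adjustment over 32768 probe sets, JUN and MAFF rose, FOSL1, FOSL2 and JUND fell, and JUNB and MAFG were not called. The 2 of 7 called higher stood against 29.6% of 13572 genes, and the 3 of 7 called lower against 24.2%, with 53.8% of genes called in either direction. FOSL1 passed the filter through its vehicle arrays alone, so these counts describe the members and are not a result about them. The median change of the 7 genes was -0.11. Counted by probe set, 16 of the 21 were tested. Of these, 5 rose, where 23.0% of all probe sets did, 4 fell, where 23.3% did, and 7 were not called.

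**Figure D1:**
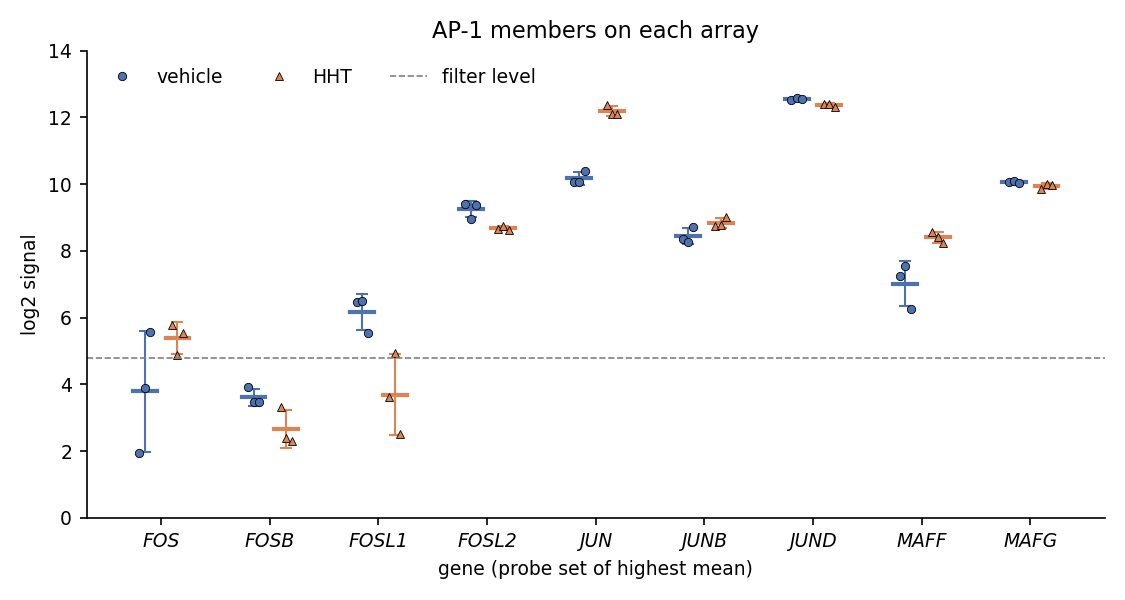
Log2 signal of the probe set of highest mean for each of 9 AP-1 members (x axis) on 3 vehicle arrays (blue circles) and 3 HHT arrays (orange triangles), with the group mean (thick bar), the SD (thin bar) and the filter level (dashed line). JUN lay at 12.10 to 12.37 on the HHT arrays and at 10.06 to 10.39 on the vehicle arrays, while FOS and FOSB lay near or below the filter level.

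JUN, the founding member and the main dimer partner of FOS proteins, had the largest rise of the family. Its probe set of highest mean read 10.07, 10.06 and 10.39 on the vehicle arrays and 12.37, 12.11 and 12.10 on the HHT arrays. All HHT arrays lay above all vehicle arrays, with a gap wider than the spread within either group. Its mean changed from 10.17 ± 0.192 (SD, n = 3) to 12.19 ± 0.153 (SD, n = 3), a rise of 2.02 (SE 0.107, limma adjusted p = 2.14e-07), or 4.05-fold. Of the 13572 genes tested, 195 (1.44%) had a higher fitted change, and 131 of these had both group means above the filter level.

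Every one of the 4 JUN probe sets rose, by amounts that differed. Probe set 201466_s_at read 7.92, 8.26 and 8.13 in vehicle and 11.02, 10.84 and 10.84 in HHT, a rise of 2.80 (SE 0.110, limma adjusted p = 4.01e-08). Probe set 201465_s_at read 6.99, 6.75 and 7.20 in vehicle and 8.77, 8.65 and 8.46 in HHT, a rise of 1.65 (SE 0.169, limma adjusted p = 1.73e-05). Probe set 213281_at read 5.93, 7.18 and 7.57 in vehicle and 8.46, 8.00 and 8.38 in HHT, a rise of 1.39 (SE 0.353, limma adjusted p = 0.00788). Groups did not overlap on any of the 4. The share of all probe sets without overlap is not given, so non-overlap here and below only describes the readings. Vehicle replicate 1 was the low array on 213281_at. Without that array 213281_at changed by 0.91 (adjusted p = 0.0054), and without a variance trend it was not called (adjusted p = 0.0536). The probe set of highest mean, 201464_x_at, has the suffix that the maker gives to probe sets whose oligonucleotides may also match other transcripts. The 4 fitted rises ran from 1.39 to 2.80 as deposited, that is 2.62-fold to 6.96-fold. They are estimates from different probe sets and set no bounds on the rise of JUN. The mean of the 4 probe sets rose by 1.96 (adjusted p = 9.28e-06).

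JUNB, which can dampen JUN activity and is itself an early response gene, was higher on every HHT array without being called. It read 8.36, 8.27 and 8.72 in vehicle and 8.74, 8.77 and 9.01 in HHT. The groups did not overlap, but vehicle replicate 3 lay just under the lowest HHT array. The change was 0.39 (SE 0.146, limma adjusted p = 0.0506), from 8.45 ± 0.241 (SD, n = 3) to 8.84 ± 0.146 (SD, n = 3). Without vehicle replicate 3 JUNB was called at 0.53 (adjusted p = 0.0118), and with equal hybridisation controls at 0.67 (adjusted p = 0.00175). Over all alternatives its adjusted p ran from 0.00175 to 0.174.

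JUND, the JUN protein that most cells express steadily, was the only JUN member called lower, by a small amount. Its probe set of highest mean read 12.53, 12.57 and 12.56 in vehicle and 12.41, 12.39 and 12.30 in HHT, a fall of 0.19 on the log2 scale (SE 0.0553, limma adjusted p = 0.0168). All HHT arrays lay below all vehicle arrays, yet the shift was smaller than that of the hybridisation controls. JUND changed by 0.10 with equal hybridisation controls and by 0.05 with equal medians of all probe sets, neither called, so its direction depends on the scaling. Nor was it called without HHT replicate 3 (-0.16, adjusted p = 0.0744) or without a variance trend (adjusted p = 0.103). Its other tested probe sets changed in opposite directions, and neither was called as deposited. Probe set 203751_x_at read 4.74, 3.05 and 5.54 in vehicle and 6.02, 6.11 and 6.00 in HHT. It was at least 2-fold higher (fitted change 1.60, SE 0.617, adjusted p = 0.0554). Its vehicle mean of 4.44 lay under the filter level, so it passed the filter through its HHT arrays. Calls of this probe set under other settings are therefore a description. It was called higher with equal medians of all probe sets (1.84, adjusted p = 0.0263), equal hybridisation controls (1.88, adjusted p = 0.0231), quantile normalization (1.85, adjusted p = 0.0362) and 64 added (0.53, adjusted p = 0.0319). The replicate block (adjusted p = 0.0477) and leaving out vehicle replicate 3 (2.15, adjusted p = 0.0161) also brought it past the threshold, while leaving out vehicle replicate 2 gave 0.91. Probe set 229117_s_at read 5.72, 6.64 and 6.67 in vehicle and 5.95, 5.70 and 5.59 in HHT (-0.59, SE 0.349, adjusted p = 0.192), and was called without vehicle replicate 1 (-0.91, adjusted p = 0.0396). Probe set 214326_x_at, with a mean under the filter level, read between 1.55 and 5.67 and was not tested.

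**Figure D2:**
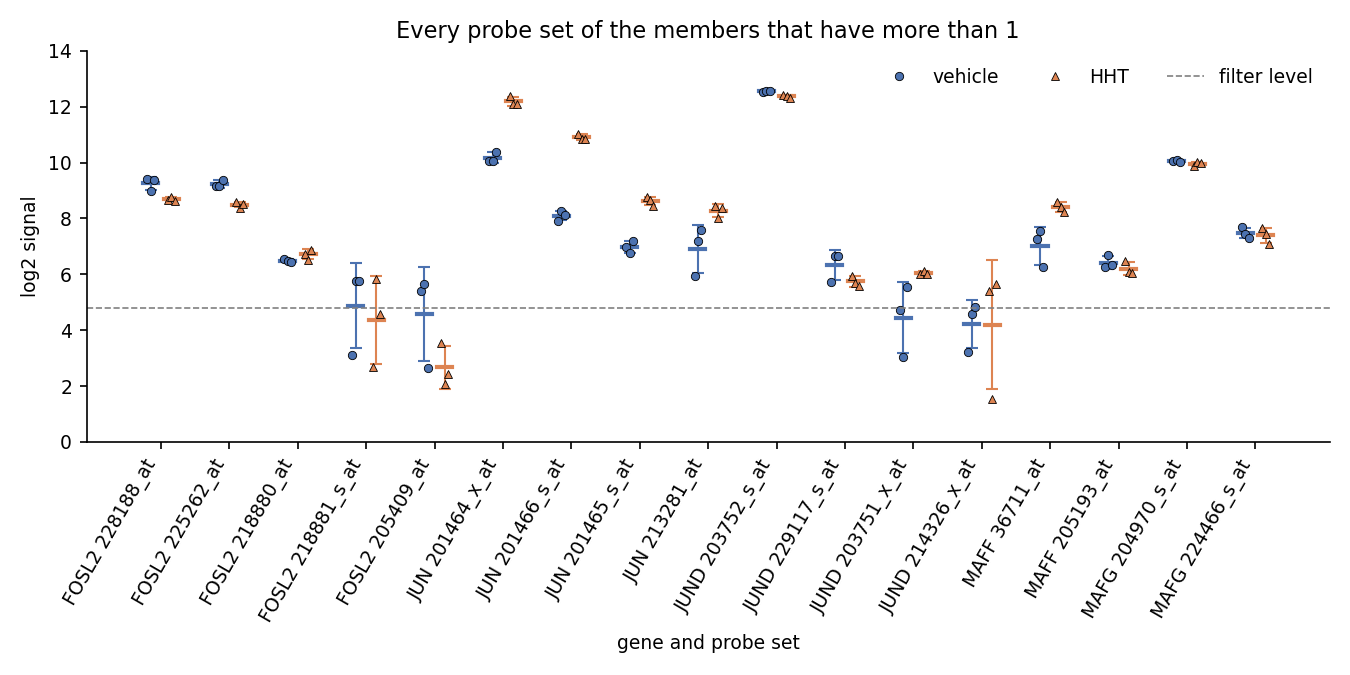
Log2 signal of every probe set of FOSL2, JUN, JUND, MAFF and MAFG (x axis) on 3 vehicle arrays (blue circles) and 3 HHT arrays (orange triangles), with group means, SDs and the filter level as a dashed line. The 4 JUN probe sets were all higher in HHT, whereas those of FOSL2, JUND and MAFF had differences of both signs. For these genes, no probe set that went against the one of highest mean was called as deposited.

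Among the FOS genes, the 2 that passed the filter were lower after HHT. FOSL1, also called FRA1, is a FOS protein without the C-terminal transactivation domain of FOS. It read 6.48, 6.49 and 5.53 in vehicle and 3.62, 4.94 and 2.52 in HHT. Every HHT array lay below every vehicle array, and HHT replicates 1 and 3 were under the filter level. With the arrays under that level set to it, FOSL1 was at least 2.51-fold lower (fitted change -2.47, SE 0.681, limma adjusted p = 0.0121), from 6.17 ± 0.552 (SD, n = 3) to 3.70 ± 1.21 (SD, n = 3). Its HHT mean lay under the filter level, so it passed the filter through its vehicle arrays and its call is a description. It has a single probe set. Leaving out arrays in turn, it passed the filter in 4 of 6 fits, not without vehicle replicate 1 or 2, and was called in those 4 with changes from -3.10 to -1.89. With 64 added to each signal before taking logs, which damps dim values, the change was -0.79 (adjusted p = 0.00552).

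FOSL2, also called FRA2, fell on 2 of its 5 probe sets. The one of highest mean, 228188_at, read 9.42, 8.97 and 9.37 in vehicle and 8.67, 8.76 and 8.63 in HHT, a fall of 0.57 (SE 0.133, limma adjusted p = 0.0047), from 9.26 ± 0.247 (SD, n = 3) to 8.68 ± 0.0695 (SD, n = 3). Probe set 225262_at read 9.17, 9.15 and 9.39 in vehicle and 8.57, 8.39 and 8.50 in HHT, a fall of 0.75 (SE 0.115, limma adjusted p = 0.000298). The groups did not overlap on either. With equal hybridisation controls the first changed by -0.29 and was not called (adjusted p = 0.11), and with equal medians of all probe sets by -0.33 (adjusted p = 0.0957). The second was called under both scalings, at -0.47 and -0.51. Probe set 218880_at read 6.54, 6.46 and 6.45 in vehicle and 6.74, 6.52 and 6.88 in HHT (0.23, SE 0.231, adjusted p = 0.446). The remaining 218881_s_at and 205409_at lay near or below the filter level, with readings from 2.69 to 5.82 and from 2.07 to 5.66, and were not tested.

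FOS and FOSB, which encode the transactivating FOS proteins, had little signal in either group. FOS read 1.94, 3.88 and 5.56 in vehicle and 5.79, 4.87 and 5.54 in HHT. The vehicle arrays were spread over a wider range than the difference between the group means, and the highest of them lay above HHT replicates 2 and 3. The means were 3.79 ± 1.81 (SD, n = 3) and 5.40 ± 0.477 (SD, n = 3), and the probe set was left out of the test because its mean over all arrays was under the filter level. FOSB read 3.91, 3.48 and 3.46 in vehicle and 3.33, 2.38 and 2.29 in HHT, with all 6 arrays under the filter level, so neither a level nor a direction is given for it. On the HHT arrays, where JUN was higher at 24 h, FOS read above the filter level on each array and FOSB below it.

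The small MAF members did not move alike. MAFF, the stress-inducible one, read 7.25, 7.54 and 6.25 in vehicle and 8.57, 8.41 and 8.23 in HHT on probe set 36711_at. This was a rise of 1.39 (SE 0.288, limma adjusted p = 0.00236), or 2.62-fold, from 7.01 ± 0.674 (SD, n = 3) to 8.40 ± 0.172 (SD, n = 3). Vehicle replicate 3 was the low array, and without it the rise was 1.01 (adjusted p = 0.00131). The other MAFF probe set, 205193_at, read 6.25, 6.68 and 6.32 in vehicle and 6.49, 6.07 and 6.06 in HHT (-0.21, SE 0.279, adjusted p = 0.572). It overlapped between the groups, and the mean of both probe sets changed by 0.59 and was not called (adjusted p = 0.0843). The rise of MAFF therefore rests on 1 of its 2 probe sets.

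MAFG, the small MAF that pairs broadly with CNC factors, read 10.07, 10.10 and 10.03 in vehicle and 9.86, 10.02 and 9.98 in HHT. The change of -0.11 (SE 0.0816, limma adjusted p = 0.281) was smaller than the shift between scalings. It was 0.17 with equal hybridisation controls and 0.12 with equal medians of all probe sets, and it was called lower only after quantile normalization (-0.22, adjusted p = 0.0493). Its other probe set, 224466_s_at, read 7.68, 7.45 and 7.30 in vehicle and 7.64, 7.45 and 7.10 in HHT (-0.08, SE 0.199, adjusted p = 0.766).

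**Figure D3:**
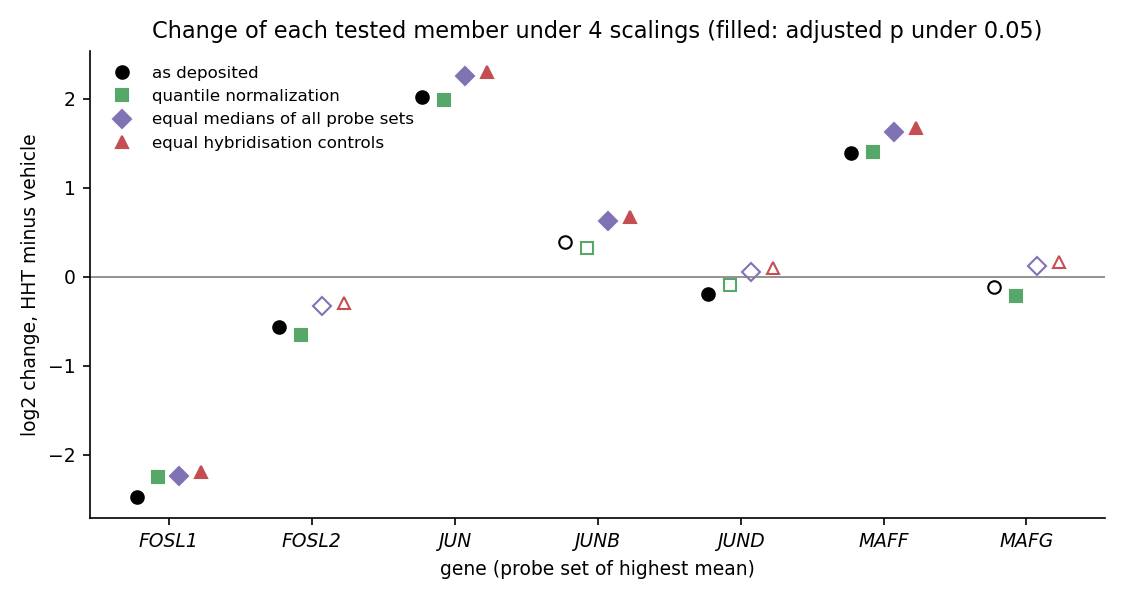
Log2 change, HHT minus vehicle, of the 7 tested members (x axis) with the values as deposited and under 3 other scalings of the arrays, filled where the adjusted p was under 0.05. JUN, MAFF and FOSL1 were called under all 4 scalings, while JUND and MAFG lay on both sides of 0. The FOSL1 calls are a description, since it passed the filter through its vehicle arrays.

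A difference between members of a family on the same array does not change with a constant shift of that array. Such differences were taken for the 10 pairs within families, of which 5 had both members tested, with an exact permutation test that cannot go below p = 0.1 with 3 against 3. JUN minus JUNB was 1.71, 1.79 and 1.67 in vehicle and 3.63, 3.34 and 3.09 in HHT. It rose from 1.72 ± 0.0596 to 3.35 ± 0.267 (SD, n = 3 each), a change of 1.63 (exact permutation p = 0.1, two-sided, 0.2 adjusted over 10 pairs). JUN minus JUND was -2.47, -2.51 and -2.17 in vehicle and -0.04, -0.29 and -0.20 in HHT, a change of 2.21 (exact permutation p = 0.1, adjusted 0.2). In both pairs all HHT arrays lay above all vehicle arrays, so JUN moved upward relative to each of its relatives. These numbers compare changes, since the levels of different probe sets are not on a common scale.

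JUNB minus JUND changed by 0.58 (exact permutation p = 0.1, adjusted 0.2), from -4.10 ± 0.239 to -3.53 ± 0.203 (SD, n = 3 each), also without overlap. With the mean of each gene's probe sets this was 0.19 (exact permutation p = 0.7). MAFF minus MAFG was -2.83, -2.56 and -3.78 in vehicle and -1.28, -1.61 and -1.75 in HHT, a 2.84-fold change in the ratio (exact permutation p = 0.1, adjusted 0.2), or 0.69 on the log2 scale from the means of probe sets. FOSL1 minus FOSL2 overlapped between the groups, at -2.94, -2.48 and -3.84 in vehicle and -5.04, -3.82 and -6.10 in HHT (change -1.90, exact permutation p = 0.2, adjusted 0.222). FOSL1 was under the filter level on HHT replicates 1 and 3. With 64 added before log2 this pair changed by -0.28 (exact permutation p = 0.4).

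**Figure D4:**
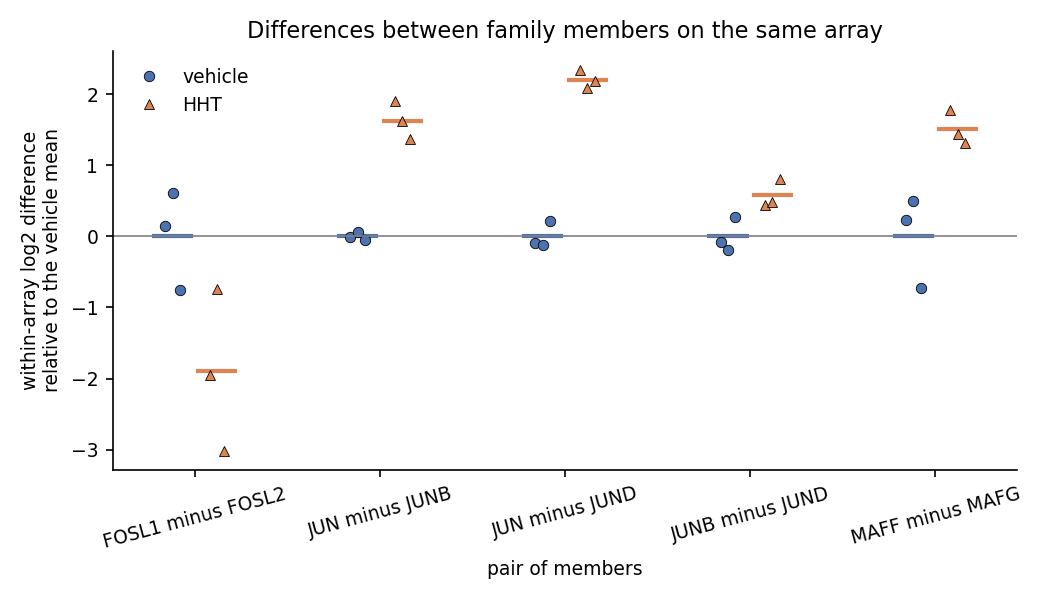
Difference in log2 signal between 2 members on the same array, minus its vehicle mean, for the 5 pairs with both members tested (x axis), with vehicle arrays as blue circles, HHT arrays as orange triangles and group means as bars. The groups overlapped only for FOSL1 minus FOSL2.

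Of 20 listed genes of bZIP proteins that pair with AP-1 or with small MAFs, 15 were tested. Of these, 4 rose and 5 fell, with a median change of -0.12. These counts lay near the shares over all genes, 29.6% higher and 24.2% lower. BATF3, a JUN partner best known from dendritic cells, fell by 1.62 (SE 0.135, limma adjusted p = 3.88e-06), from 9.40 ± 0.219 to 7.77 ± 0.0675 (SD, n = 3 each). The CNC factors NFE2L1 and NFE2L3, which bind DNA with a small MAF, fell by 1.05 (SE 0.0852) and 0.91 (SE 0.116). NFE2L2, the CNC factor NRF2, differed by -0.12 and was not called, and BACH1, which competes with it for small MAFs, rose by 0.54 (SE 0.120). BATF rose by 0.82 (SE 0.0758), CREB1 by 0.71 (SE 0.0611) and ATF3, a stress-induced JUN partner, by 0.51 (SE 0.123). ATF7 fell by 0.57 (SE 0.132) and JDP2, a repressor that pairs with JUN, by 0.26 (SE 0.0900), a change within the range of the shifts between scalings. The 5 called lower were 3 with equal hybridisation controls and also with equal medians of all probe sets.

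Of 16 listed kinases upstream of AP-1, 13 were tested, 3 rose, 2 fell and 8 were not called, with a median of -0.03. Of all genes, 29.6% rose and 24.2% fell. MAP3K1 and MAP2K4, which act in sequence above the JUN N-terminal kinases, rose by 0.64 (SE 0.0565, limma adjusted p = 5.87e-06) and 0.58 (SE 0.134, limma adjusted p = 0.00462). Of the JUN N-terminal kinases themselves, MAPK8 fell by 0.25 (SE 0.0849) and MAPK9 rose by 0.21 (SE 0.0721), both smaller than the shift between scalings, and MAPK10 (-0.88, SE 0.364, adjusted p = 0.0721) was not called. The count of 2 lower was 1 without vehicle replicate 1, vehicle replicate 3, HHT replicate 1 or HHT replicate 3. RPS6KA5, a kinase of chromatin at early response genes, fell by 0.29 (SE 0.0678), a call lost with equal medians of all probe sets (-0.05), with equal hybridisation controls (-0.00) and with the mean of its probe sets (-0.77, adjusted p = 0.072).

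Among the factors known to bind the FOS and JUN promoters, the MEF2 members rose while SRF and ELK1 fell. Of 9 tested, 6 rose, 2 fell and 1 was not called, with a median of 0.53, against 29.6% of all genes higher and 24.2% lower. With the mean of probe sets 3 were called higher and 1 lower. At an absolute change of at least 1 these counts were 1 and 0. MEF2A rose by 1.07 (SE 0.0560, limma adjusted p = 1.97e-07), from 11.28 ± 0.0176 to 12.36 ± 0.0254 (SD, n = 3 each), or by 0.42 in the mean of its probe sets. MEF2C rose by 0.98 (SE 0.0517, limma adjusted p = 2.14e-07), from 12.91 ± 0.0388 to 13.89 ± 0.0499 (SD, n = 3 each), and MEF2D by 0.53 (SE 0.157). The MEF2 site of the JUN promoter is the one printed in capitals above, and binding to it was not tested. SRF, which binds the CArG box of the FOS gene, fell by 0.82 (SE 0.140, limma adjusted p = 0.00063). Its partner ELK1 fell by 0.91 (SE 0.140, limma adjusted p = 0.000319), a call not held by the mean of its probe sets (-0.60, adjusted p = 0.33), whereas ELK4 rose by 0.58 (SE 0.0743), ELK3 by 0.43 (SE 0.0693) and MRTFB, an SRF coactivator, by 0.71 (SE 0.0871).

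Genes of the turnover of AP-1 proteins and messenger RNAs were called in 9 of 11 cases, 4 higher and 5 lower, with a median of -0.20, where 29.6% of all genes rose and 24.2% fell. ZFP36L1 and ZFP36, which bind AU-rich elements and promote decay, rose by 1.43 (SE 0.0953, limma adjusted p = 8.86e-07) and 1.10 (SE 0.0942, limma adjusted p = 4.62e-06), and their relative ZFP36L2 fell by 0.71 (SE 0.0599). The ZFP36L1 call was not held by the mean of its probe sets (0.51, adjusted p = 0.418). Transcripts of other proteins that bind such elements were lower. KHSRP fell by 0.87 (SE 0.105), ELAVL1, which encodes a stabilising factor, by 0.69 (SE 0.0698) and HNRNPD by 0.58 (SE 0.0790). TRIB1, an adaptor of the COP1 ligase, fell by 0.57 (SE 0.0946). Of the ubiquitin ligase genes that act on JUN, ITCH rose by 1.08 (SE 0.118, limma adjusted p = 2.81e-05) and DET1 by 0.86 (SE 0.125), while COP1 (0.13, adjusted p = 0.344) and FBXW7 (-0.20, adjusted p = 0.076) were not called.

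Of 23 listed genes known as AP-1 targets, 17 were tested, 7 rose, 6 fell and 4 were not called, with a median of 0.05. The shares over all genes were 29.6% higher, 24.2% lower and 53.8% called either way. HMOX1, the haem-degrading enzyme also controlled by NRF2 and BACH1, was at least 5.76-fold higher (fitted change 3.30, SE 0.589, limma adjusted p = 0.000884), from 4.40 ± 1.34 to 7.70 ± 0.521 (SD, n = 3 each). Its vehicle mean lay under the filter level, so it passed the filter through its HHT arrays and its call is a description. TIMP1, an inhibitor of matrix proteases, rose by 1.56 (SE 0.0838), VIM by 1.20 (SE 0.242), the phosphatase DUSP1 by 1.13 (SE 0.154), PLAU by 0.70 (SE 0.0966), the growth factor HBEGF by 0.65 (SE 0.148) and the chemokine CXCL8 by 0.53 (SE 0.143). CD44, an adhesion receptor, fell by 2.01 (SE 0.0512, limma adjusted p = 5.29e-09), from 14.39 ± 0.0124 to 12.38 ± 0.0581 (SD, n = 3 each). CCND1, the G1 cyclin D1, fell by 1.65 (SE 0.184, limma adjusted p = 3.04e-05) and VEGFA by 0.99 (SE 0.0653). MT2A and TXNRD1 each fell by 0.45 (SE 0.0502 and 0.0542) and PLAUR by 0.49 (SE 0.0985). The 6 called lower were 3 with equal medians of all probe sets, 4 with equal hybridisation controls and 7 without a variance trend. The 7 called higher were 4 with the mean of probe sets and 9 with equal hybridisation controls. The matrix proteases MMP1, MMP3 and MMP10, classical AP-1 targets in fibroblasts, had means under the filter level and were not tested.

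**Figure D5:**
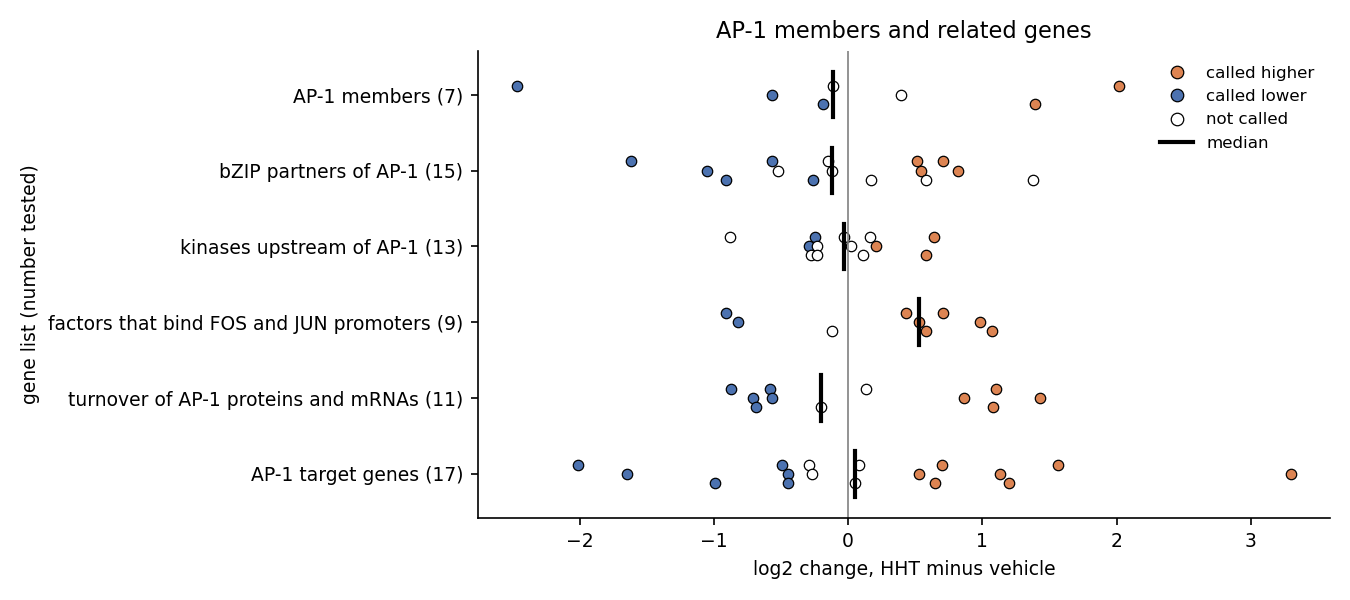
Log2 change, HHT minus vehicle, of the tested AP-1 members and of the tested genes in 5 related lists (y axis, number tested in parentheses), coloured by call at an adjusted p under 0.05, with the median of each list as a bar. The medians lay between -0.20 and 0.53.

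The genes whose profile over the 6 arrays was most like that of JUN, each profile centred on its vehicle mean, were the zinc finger gene ZNF678, the cytokine gene IL15 and FILIP1L. Their root mean square differences from JUN were 0.0793, 0.0816 and 0.0936 on the log2 scale, and they rose by 1.95 (SE 0.180), 1.97 (SE 0.260) and 2.03 (SE 0.149). For FOSL1, the called member with the largest fitted fall, the nearest were RNF157, PTPRF and ACTL8, at 0.260, 0.424 and 0.504. The HHT means of RNF157 and PTPRF also lay under the filter level, on all 3 arrays for RNF157 and on 2 of 3 for PTPRF, at least 2.73-fold and 3.27-fold lower, while ACTL8 fell by 2.27 (SE 0.221) from 9.32 to 7.05.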

How the data were processed

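RNA was amplified and labelled with biotin by 3' in vitro transcription, per the labels' protocols. The authors deposited a single log2 signal for each probe set of each array. Per the submitters' processing notes the tool was MAS5 (no version), and the values show its scaling: the antilog signals trimmed by 2% at each end averaged 500.06 to 500.07 on all arrays. No pseudocount was added. Without the 62 control probe sets, the 40% with the lowest mean over all arrays (up to 4.80) were left out. HHT was set against vehicle by lmFit and eBayes with a variance trend (limma 3.58.1, R 4.3.3), with Benjamini-Hochberg adjustment over 32768 probe sets, and called at an adjusted p under 0.05. SE is the fitted standard error. Lower-bound folds set each array of the dim group to at least the filter level, which is no measured detection limit. Symbols were updated through Entrez IDs with RefSeq (GRCh38.p14). Named were all members, and the 3 called genes of each list with the largest absolute change, plus the 3 nearest profiles of the members with the largest called rise and fall; other list genes were named after their values were seen. Members and lists were chosen with earlier results of these data known. The fit was tested on simulated data. The number of arrays limits the precision.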

Additional observations from a re-analysis of the deposited data

How the results depend on the processing

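Of 746 alternative values for 48 results, 676 kept their direction and side of the threshold, or a count within 1.5 times; the cause of the other 70 was not tested. Equal medians of all probe sets, chosen after seeing the data, gave FOSL2 -0.33, JUNB 0.63, JUND 0.05, MAFG 0.12, MAFF 205193_at 0.03 and MAFG 224466_s_at 0.16, with 1 member lower, 3 partners lower, 5 kinases higher and 0 lower, and 3 targets lower. Equal hybridisation controls gave, in the same order, -0.29, 0.67, 0.10, 0.17, 0.07 and 0.20, with 1 member lower, 3 partners lower, and 6 kinases higher and 0 lower. Quantile normalization gave JUND -0.09, MAFG -0.22 and 7 partners higher. The mean of probe sets gave JUND 0.20 and MAFF 0.59, with 1 member higher, 2 partners higher, 1 kinase lower, 3 promoter-binding factors higher and 1 lower, and 4 targets higher. Adding 64 before log2 gave JUNB 0.33, called, and the 60% filter gave 0.39, called. Without a variance trend JUND, at -0.19, was not called, and 1 kinase was lower. At an adjusted p under 0.01, 1 member and 1 kinase were lower. At an absolute change of at least 1, 1 member was lower, 0 partners were higher and 2 lower, 0 kinases were higher and 0 lower, 1 factor was higher and 0 lower, 0 turnover genes were lower, and 4 targets were higher and 2 lower. The replicate block called JUNB at 0.39; same-numbered arrays correlated at 0.0655, -0.0141 and 0.0491, so the numbers were not taken to pair samples, and vehicle replicate 2 correlated best with another number. Leaving out arrays in turn gave 0.30 to 0.53 for JUNB, -0.21 to -0.16 for JUND, -0.20 to 0.07 for MAFG 224466_s_at and 1 to 2 kinases lower. The 60% filter gave no value for FOSL1, HMOX1, MAFF 205193_at or the JUND probe sets 229117_s_at and 203751_x_at, and leaving out vehicle replicate 1 or 2 gave none for FOSL1. Signals near the filter level limit FOS, FOSB, FOSL1 and the JUND probe set 203751_x_at.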
